A study of Mus musculus with 8 samples.

Results

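The genes described encode 8 enzymes of the glutamate-linked synthesis of asparagine, proline, alanine, aspartate and glutamine. The genes are Asns, Aldh18a1, Pycr1, Gpt, Gpt2, Got1, Got2 and Glul. They were chosen by symbol from the 52778 features of the deposited table, and all 8 passed the expression filter, as did 15545 features in all. RNA came from the heart ventricles of embryonic day 11.5 mice. There were 4 control libraries, labelled C57BL/6 WT, and 4 libraries from Atf4(del7/del7) embryos, titled frameshift mutants and labelled a global knockout of ATF4. The allele lacks 7 bases of Atf4 exon 3 after CRISPR/Cas9 cutting and is described by the submitters as removing the protein and leaving the polyadenylation signal. No group received a treatment, all libraries carry batch 1, and the sex, the litter and any pooling of embryos are not given in the sources used here. The genotype field of the mutants also reads C57BL/6 WT, so the groups follow the titles. The submitters call the 4 libraries of each genotype biological replicates, and a part of litter or dam in the differences was not tested.

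Glutamate is the hub of non-essential amino acid synthesis. Asparagine synthetase (Asns) moves the amide of glutamine onto aspartate, and the bifunctional enzyme of Aldh18a1 followed by a pyrroline-5-carboxylate reductase such as Pycr1 turns glutamate into proline. The alanine aminotransferases (Gpt, Gpt2) and aspartate aminotransferases (Got1, Got2) pass the amino group of glutamate to pyruvate or oxaloacetate, and glutamine synthetase (Glul) adds ammonia to glutamate. ATF4 is a transcription factor made when cells sense amino acid shortage, and asparagine and proline synthesis genes are among its textbook targets. It binds composite C/EBP-ATF response elements, of which TGATGNAA is the core used here.

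Stretches of DNA upstream of 4 members are shown because they hold that core or, for Aldh18a1, belong to a member whose transcript was low in the mutants. The letters TGATGNAA were searched on both strands (TTNCATCA on the other strand) in the 250 bases before each gene start listed by RefSeq for GRCm38.p6, and no other motif was searched. Promoters of 7 of the 8 members were matched by symbol, all but Gpt. Each sequence reads 5′ to 3′ on the strand of the gene, ends just before the start, and has the match in capitals. The windows lie at chr6:7693210-7693459 (minus strand) for Asns, chr11:120643749-120643998 (minus strand) for Pycr1, chr19:43524606-43524855 (minus strand) for Got1 and chr19:40588464-40588713 (minus strand) for Aldh18a1.
Asns: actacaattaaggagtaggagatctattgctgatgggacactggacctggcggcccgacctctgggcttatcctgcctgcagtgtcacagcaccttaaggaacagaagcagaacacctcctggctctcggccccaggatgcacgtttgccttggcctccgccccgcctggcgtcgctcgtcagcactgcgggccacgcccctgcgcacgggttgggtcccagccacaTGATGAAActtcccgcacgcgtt
Pycr1: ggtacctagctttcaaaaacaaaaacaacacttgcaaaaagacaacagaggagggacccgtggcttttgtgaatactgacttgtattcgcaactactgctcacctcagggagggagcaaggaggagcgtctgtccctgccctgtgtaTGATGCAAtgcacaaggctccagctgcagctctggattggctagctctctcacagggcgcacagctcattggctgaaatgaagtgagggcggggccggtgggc
Got1: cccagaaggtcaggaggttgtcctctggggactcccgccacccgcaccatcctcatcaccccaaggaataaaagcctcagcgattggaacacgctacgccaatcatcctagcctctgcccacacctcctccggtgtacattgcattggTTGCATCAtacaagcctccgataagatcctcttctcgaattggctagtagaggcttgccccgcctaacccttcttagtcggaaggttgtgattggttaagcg
Aldh18a1: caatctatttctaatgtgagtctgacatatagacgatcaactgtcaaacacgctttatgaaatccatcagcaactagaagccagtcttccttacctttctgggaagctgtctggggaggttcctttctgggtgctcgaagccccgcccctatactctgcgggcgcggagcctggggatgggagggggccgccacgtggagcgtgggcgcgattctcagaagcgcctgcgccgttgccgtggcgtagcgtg

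Asns, Pycr1 and Got1 each held 1 match, so 3 of the 7 member windows did, against 1134 of all 32851 windows (3.45%). The match began 23 bases before the start in Asns, 103 bases before it in Pycr1 and, on the other strand, 102 bases before it in Got1. No match was found in this window of Aldh18a1, Gpt2, Got2 or Glul. A match is a run of letters and was not tested as a binding site.

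The 3 members with the lowest mutant means relative to control were Asns, Pycr1 and Aldh18a1, and none of them passed the adjusted threshold. Asns averaged 72.1% of its control mean, Pycr1 72.6% and Aldh18a1 79.7%, and for each of them no mutant library reached the lowest control. Glul, at 94.2% of control, showed the same separation at a much smaller size. Gpt, Gpt2, Got1 and Got2, the aminotransferase genes, had overlapping groups, with Gpt2 at 90.1% of control. The difference between these genes and Asns, Aldh18a1 and Pycr1 was not tested. Expression is given as TPM, a level scaled for transcript length and library size, and differences were tested as log2(TPM + 1) in limma with Benjamini-Hochberg adjustment over all 15545 genes. This scale understates fold changes of genes at low level, such as Gpt and Gpt2. With 0 of the 8 members past an adjusted p of 0.05, none of these differences passed the test over all genes, against 6 genes or 0.0386% in the whole fit.

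By the weaker measure of an unadjusted p below 0.05, 4 of the 8 members were lower and 0 were higher in the mutants. Over all tested genes the shares were 3.45% lower and 2.65% higher. Groups without overlap were seen in the same direction in Asns, Aldh18a1, Pycr1 and Glul, while over all tested genes 2.05% had every mutant below every control and 1.63% the reverse. The median log2 fold change of the members was -0.10, beside -0.0033 over all tested genes. The members were chosen with earlier results of these data known, so their counts describe them and carry no test of their own. Beside these members, 2 of 6 macrophage markers also lay fully below control, Cx3cr1 (1.08 to 1.87 TPM in control and 0.387 to 0.720 TPM in mutant libraries) and Mrc1 (1.36 to 2.49 and 0.762 to 1.11 TPM), each with an adjusted p of 0.573 in limma. All 4 of the macrophage markers that were tested had a negative log2 fold change, and the summed level of the 6 was 6.20 to 12.8 TPM in the controls and 4.32 to 6.42 TPM in the mutants. Their part in the member values was not tested. In bulk tissue, fewer cells of a type and less RNA per cell cannot be told apart.

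**Figure D1:**
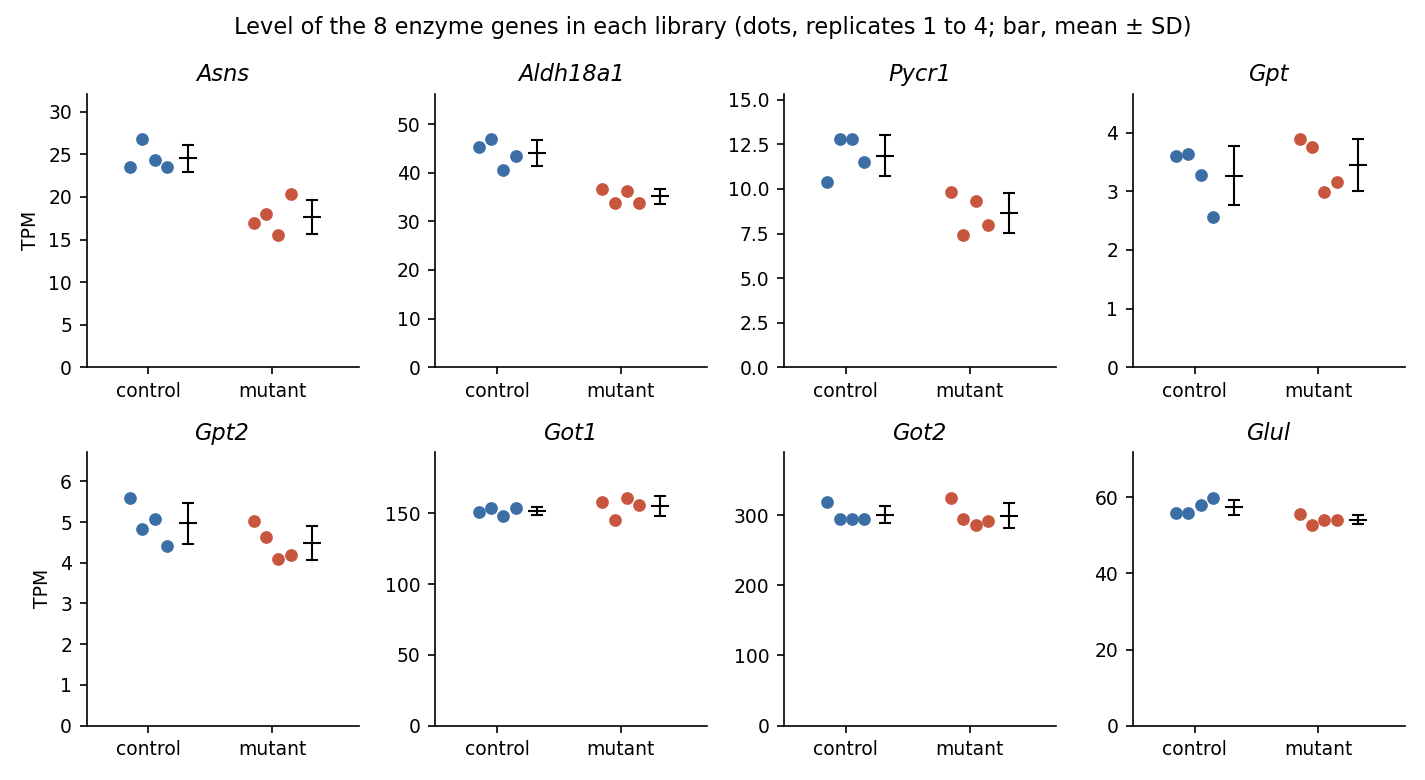
TPM (vertical axes, each from 0) of the 8 enzyme genes in the 4 control and 4 mutant libraries, 1 dot per library in replicate order, with the mean and SD beside each group. Dots of Asns, Aldh18a1, Pycr1 and Glul do not overlap between groups, and those of Gpt, Gpt2, Got1 and Got2 do.

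Asns spans bases 7675165 to 7693209 of chromosome 6 (minus strand, GRCm38), and its longest coding transcript in GENCODE M21 has 12 exons. It was measured at 23.5, 26.8, 24.3 and 23.5 TPM in control replicates 1 to 4 and at 16.9, 18.0, 15.5 and 20.3 TPM in mutant replicates 1 to 4. All mutant libraries were low, and a gap of 3.18 TPM separated the highest of them, replicate 4, from the lowest control. The means were 24.5 ± 1.58 and 17.7 ± 2.02 TPM (SD, n = 4 each). The log2 fold change was -0.45 (standard error 0.080, 95% interval -0.63 to -0.27), with an unadjusted p of 2.57e-04 and an adjusted p of 0.336 in limma. By unadjusted p Asns ranked 11 of 15545 genes, and 1.03% of the genes had a lower log2 fold change. No other listed feature overlaps Asns.

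Other genes that use or release asparagine were set beside it. Nars, which charges asparagine onto its tRNA in the cytosol, held 88.7, 85.2, 84.8 and 85.9 TPM in control and 71.9, 75.0, 75.2 and 73.3 TPM in mutant libraries. Its groups did not overlap, and its log2 fold change of -0.22 ± 0.031 (SE), with an adjusted p of 0.111 in limma, was smaller in size than that of Asns but had a smaller unadjusted p, 4.98e-05. Nars2, the mitochondrial counterpart of Nars, lay the other way, at 5.14 to 6.90 TPM in control and 6.95 to 7.88 TPM in mutant libraries (log2 fold change 0.23, adjusted p of 0.809).

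Asrgl1, an asparaginase that splits asparagine into aspartate and ammonia, was measured at 10.9 ± 0.652 TPM in control and 10.5 ± 0.505 TPM in mutant libraries, with a log2 fold change of -0.050 (95% interval -0.19 to 0.089). Aspg, another asparaginase, stayed between 0.157 and 0.351 TPM and was too low to be tested. The ratio of Asns to Asrgl1 within a library was 2.07 to 2.59 in the controls and 1.52 to 2.00 in the mutants, so the synthetic transcript was lower relative to the degrading one in each mutant library. Asns alone already lay fully below control, so the separation of the ratio largely restates that of Asns. Ratios are given as descriptions, and no difference between genes was tested.

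Proline synthesis begins with Aldh18a1, which makes pyrroline-5-carboxylate from glutamate by way of glutamate semialdehyde. The gene spans bases 40550257 to 40588463 of chromosome 19 (minus strand), with 19 exons in its longest coding transcript. Its controls held 45.2, 46.9, 40.5 and 43.5 TPM and its mutants 36.7, 33.7, 36.2 and 33.8 TPM. Every mutant was low, the groups were 3.76 TPM apart, and the means were 44.0 ± 2.74 and 35.1 ± 1.60 TPM (SD, n = 4 each). Its log2 fold change, -0.32 (standard error 0.053, 95% interval -0.44 to -0.20), had the smallest adjusted p of the members, 0.305, with an unadjusted p of 1.76e-04 and rank 9 of 15545. Gm15801, a processed pseudogene within Aldh18a1 on the same strand that shares no base with its annotated exons, was listed at 19.6 ± 0.397 TPM in control and 20.2 ± 0.850 TPM in mutant libraries. How reads were divided between the overlapping features is not stated.

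Pycr1, a mitochondrial reductase that completes proline, spans bases 120638998 to 120643748 of chromosome 11 (minus strand), with 8 exons in its longest coding transcript. It was measured at 10.4, 12.8, 12.8 and 11.5 TPM in control and 9.82, 7.42, 9.31 and 7.97 TPM in mutant libraries. The groups did not overlap, but the gap between control replicate 1 and mutant replicate 1 was only 0.536 TPM. The means were 11.9 ± 1.19 and 8.63 ± 1.13 TPM (SD, n = 4 each), which is -0.42 as a log2 fold change (standard error 0.099, 95% interval -0.65 to -0.20). Limma gave an unadjusted p of 0.00190, rank 44, and an adjusted p of 0.645.

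Pycrl, which also encodes a pyrroline-5-carboxylate reductase, did not show such a separation. It held 43.5 to 44.8 TPM in control and 40.6 to 46.1 TPM in mutant libraries (log2 fold change -0.040, 95% interval -0.14 to 0.065, adjusted p of 0.942). By level Pycr1 was less abundant than Pycrl in every library. The ratio of Pycr1 to Pycrl was 0.236, 0.295, 0.289 and 0.257 in the controls and 0.213, 0.181, 0.229 and 0.179 in the mutants, without overlap. Pycr1 alone did not overlap either, so this ratio largely restates its separation.

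**Figure D2:**
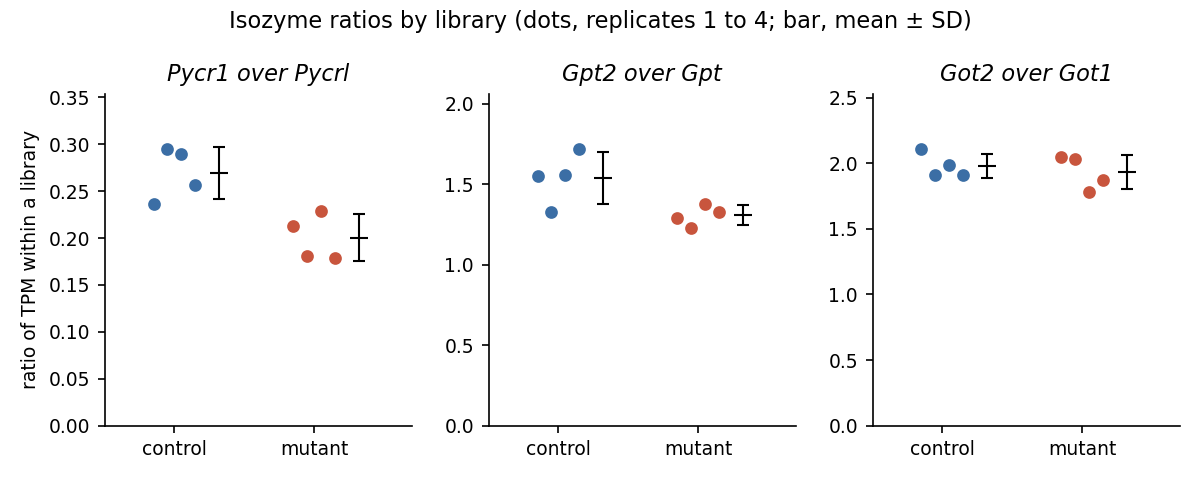
Ratio of TPM between isozyme genes within each library (vertical axes from 0), 1 dot per library with the mean and SD of each group of 4. The ratio of Pycr1 to Pycrl does not overlap between groups, as Pycr1 alone does not, while those of Gpt2 to Gpt and of Got2 to Got1 do.

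Oat, Prodh and Aldh4a1 had overlapping groups. Oat, which turns ornithine into glutamate semialdehyde, held 125 ± 4.47 TPM in control and 127 ± 2.17 TPM in mutant libraries (log2 fold change 0.026, 95% interval -0.050 to 0.10). The ratio of Aldh18a1 to Oat transcripts was 0.322 to 0.376 in the controls and 0.267 to 0.285 in the mutants. Aldh18a1 alone already lay fully below control, so this ratio largely restates its separation. The use of the glutamate and ornithine routes was not measured. Prodh, which begins proline breakdown, was at 8.64 ± 0.498 and 8.98 ± 0.645 TPM (log2 fold change 0.049), and Aldh4a1, which finishes it, at 21.1 ± 1.44 and 22.8 ± 1.76 TPM (log2 fold change 0.11). Their adjusted p values were 0.955 and 0.867.

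P4ha1 and P4ha2, subunits of collagen prolyl hydroxylase, and Odc1, which decarboxylates ornithine, had the smallest unadjusted p values of that list. P4ha1 was at 37.7 to 42.8 TPM in control and 42.3 to 48.7 TPM in mutant libraries (log2 fold change 0.16, p 0.0165 before and 0.780 after adjustment). P4ha2 differed by 0.26 and Odc1 by 0.062 on the log2 scale, with adjusted p values of 0.841 and 0.849. P4ha2 was at 119% of control and P4ha1 at 112%, and for P4ha2 the log2 fold change was 0.13 without control replicate 3. Of 14 genes listed for proline and ornithine, 10 were tested, 0 passed an adjusted p of 0.05, and at an unadjusted p below 0.05 there was 1 higher and 0 lower. The median log2 fold change was 0.038. Both members of the proline route lay below the lowest value of this list, a log2 fold change of -0.135. The members were chosen with earlier results known, so this order is a description, and the difference was not tested.

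**Figure D3:**
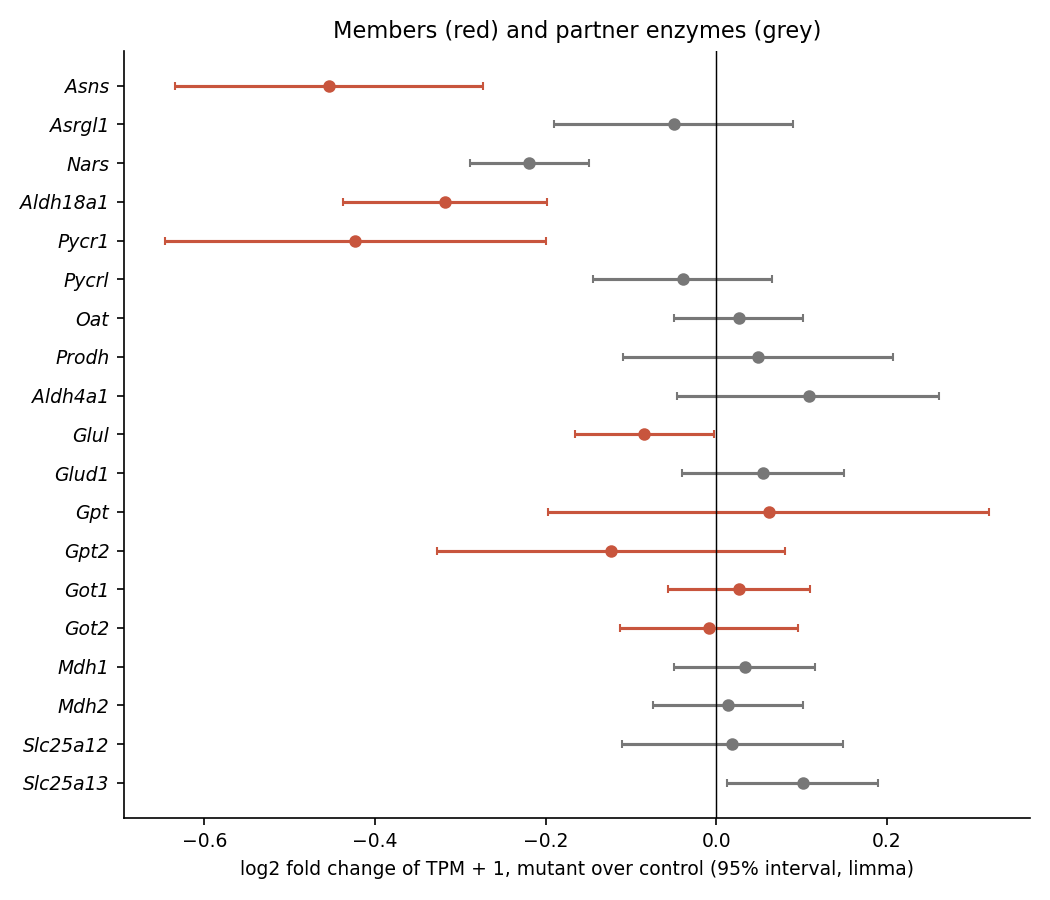
Log2 fold change of TPM + 1 between mutants and controls (horizontal axis) with the 95% interval from limma, for the members in red and partner enzymes in grey. Intervals of Asns, Aldh18a1, Pycr1, Glul and Nars lie below 0, and that of Slc25a13 above 0, before adjustment for the number of genes tested.

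Glul, which makes glutamine and consumes ammonia, spans bases 153899929 to 153909723 of chromosome 1 (plus strand), with 7 exons in its longest coding transcript. Its controls held 55.9, 55.8, 58.0 and 59.9 TPM and its mutants 55.6, 52.8, 54.0 and 53.9 TPM. All mutants were below all controls, by only 0.223 TPM between mutant replicate 1 and control replicate 2. The means were 57.4 ± 1.98 and 54.1 ± 1.15 TPM (SD, n = 4 each), which is -0.084 as a log2 fold change (standard error 0.036, 95% interval -0.17 to -0.0026, unadjusted p of 0.0443, adjusted p of 0.809). The feature Mir8114 shares up to 93 bases with an exon at the start of Glul and was listed at 43.7 to 59.1 TPM in control and 39.3 to 49.7 TPM in mutant libraries, so the values of both can hold the same reads.

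Other genes of glutamate metabolism were set beside Glul. Gls2, a glutaminase gene, stayed between 0.581 and 1.07 TPM and was not tested. Glud1, glutamate dehydrogenase, was at 74.2 ± 3.33 and 77.1 ± 2.67 TPM (log2 fold change 0.054, adjusted p of 0.903). Bcat1, the cytosolic branched-chain aminotransferase, was at 4.27 to 5.29 TPM in control and 3.30 to 3.75 TPM in mutant libraries, without overlap (log2 fold change -0.32, p 0.00335 before and 0.720 after adjustment). Psat1, a serine synthesis enzyme that takes its amino group from glutamate, differed by -0.16 on the log2 scale (p of 0.0214 before and 0.800 after adjustment). Ggct, a gamma-glutamylcyclotransferase of glutathione turnover, was at 2.53 to 3.19 TPM in control and 2.97 to 4.15 TPM in mutant libraries, with overlap (log2 fold change 0.22, adjusted p of 0.825). In the list of glutamate, glutamine and aminotransferase genes, 19 of 29 were tested and 0 passed, with 2 lower and 0 higher at an unadjusted p below 0.05 and a median log2 fold change of 0.014.

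The alanine aminotransferases were the least abundant members. Gpt, the cytosolic form (chromosome 15, bases 76696726 to 76699675, plus strand), held 3.61, 3.63, 3.27 and 2.56 TPM in control and 3.89, 3.76, 2.98 and 3.15 TPM in mutant libraries. Its groups overlapped, with 2 mutants above the highest control. The log2 fold change was 0.061 (95% interval -0.20 to 0.32, adjusted p of 0.967). Leaving out control replicate 4 turned it to -0.023.

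Gpt2, the mitochondrial form (chromosome 8, bases 85492576 to 85528902, plus strand), held 5.60, 4.82, 5.08 and 4.40 TPM in control and 5.02, 4.63, 4.10 and 4.19 TPM in mutant libraries. Its groups overlapped, with 2 mutants below the lowest control, and the means were 4.98 ± 0.502 and 4.49 ± 0.428 TPM. The log2 fold change was -0.12 (95% interval -0.33 to 0.081, unadjusted p of 0.206, adjusted p of 0.898), and -0.074 without control replicate 1. The interval reaches the log2 fold change of Aldh18a1, -0.32. The ratio of Gpt2 to Gpt was 1.33 to 1.72 in the controls and 1.23 to 1.38 in the mutants, so the mitochondrial transcript was the more abundant in all 8 libraries.

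The aspartate aminotransferases, which also carry the malate-aspartate shuttle of reducing equivalents into mitochondria, were the most abundant members. Got1, the cytosolic form (chromosome 19, bases 43499752 to 43524605, minus strand), held 151, 154, 148 and 154 TPM in control and 158, 145, 161 and 156 TPM in mutant libraries. The groups overlapped, with means of 152 ± 3.00 and 155 ± 6.79 TPM, and the log2 fold change was 0.027 (95% interval -0.057 to 0.11, adjusted p of 0.952). Got1 has the TGATGNAA core shown above, as do Asns and Pycr1, but its interval does not reach their log2 fold changes.

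Got2, the mitochondrial form (chromosome 8, bases 95864133 to 95888401, minus strand), held 319, 294, 295 and 295 TPM in control and 325, 295, 286 and 291 TPM in mutant libraries. Replicate 1 was the highest library in both groups, and the groups overlapped. The log2 fold change was -0.0085 (95% interval -0.11 to 0.096, adjusted p of 0.992). Got2-ps1, a pseudogene named after Got2 on chromosome 5, was listed at 29.5 ± 2.23 and 28.9 ± 0.96 TPM, and the division of reads between the copies is not stated. The ratio of Got2 to Got1 was 1.91 to 2.11 in the controls and 1.78 to 2.05 in the mutants.

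The partners of Got1 and Got2 in the malate-aspartate shuttle had overlapping groups as well. The malate dehydrogenases Mdh1 and Mdh2 were at 753 ± 26.3 and 721 ± 28.9 TPM in control and 771 ± 24.0 and 728 ± 24.3 TPM in mutant libraries. Slc25a12, an aspartate-glutamate carrier, was at 71.7 ± 3.42 and 72.7 ± 5.66 TPM. Slc25a13, the other carrier, was at 73.3 to 79.5 TPM in control and 79.4 to 86.3 TPM in mutant libraries, a log2 fold change of 0.10 (p of 0.0294 before and 0.809 after adjustment). Mpc1, a subunit of the mitochondrial pyruvate carrier, varied most within groups, from 5.02 to 12.5 TPM in control and from 5.35 to 26.5 TPM in mutant libraries. Its log2 fold change of 0.37 turned to -0.061 without mutant replicate 4. Of the 10 genes in this list 9 were tested and 0 passed, with 0 lower and 1 higher at an unadjusted p below 0.05 and a median log2 fold change of 0.019.

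In the list of asparagine, aspartate and urea-cycle-linked genes, 10 of 14 were tested and 0 passed, with 1 lower (Nars) and 1 higher (Nars2) at an unadjusted p below 0.05. Asl, which splits argininosuccinate, was at 10.1 ± 0.757 and 11.1 ± 1.71 TPM (adjusted p of 0.923). Over the 4 lists together, members left out, 48 of 67 genes were tested. Of these 15 (31.2%) had a negative and 33 a positive log2 fold change, beside 51.8% negative over all tested genes. The median was 0.022, beside -0.0033 over all tested genes. Among the 48, 3 were lower and 3 higher at an unadjusted p below 0.05, and 2 genes lay fully below and 1 fully above control. Over all tested genes the shares were 3.45% lower and 2.65% higher, and 2.05% fully below and 1.63% fully above control. The same shares stand beside the counts of each single list. The counts are small, and no difference from these shares was tested. The 19 untested genes include Otc and Prodh2, both listed at 0 in every library.

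**Figure D4:**
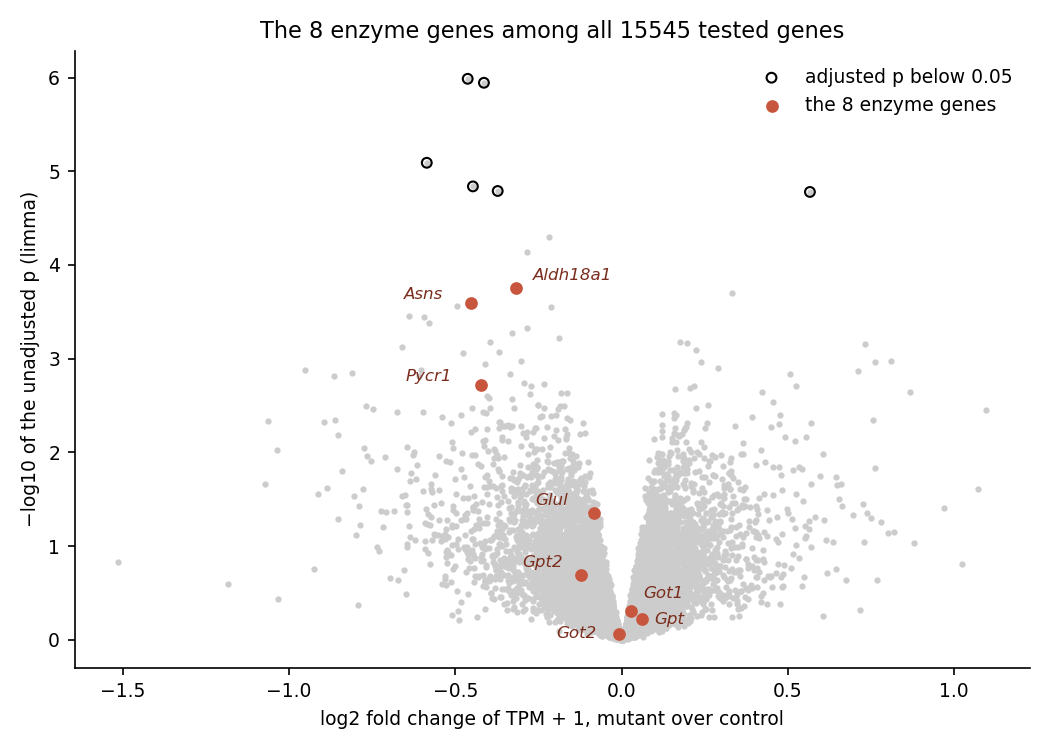
Log2 fold change of TPM + 1 (horizontal axis) against -log10 of the unadjusted p (vertical axis) for the 15545 tested genes in grey, the 6 genes with an adjusted p below 0.05 circled, and the 8 members in red. Aldh18a1, Asns and Pycr1 lie at the left below the circled genes, and Got1, Got2 and Gpt lie near the origin.

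By level the members fell into an order that was the same in both groups: Got2, Got1, Glul, Aldh18a1, Asns, Pycr1, Gpt2 and Gpt. No neighbours in this order overlapped within a group. Got1 and Got2 together held 74.8% to 76.6% of the summed TPM of the 8 members in the controls and 78.4% to 79.1% in the mutants. The levels of Got1 and Got2 themselves overlapped between groups, so this share also carries the lower values of other members. The sum of Asns, Aldh18a1 and Pycr1 was 77.6 to 86.6 TPM in control and 59.1 to 63.4 TPM in mutant libraries. Each of these genes already lay fully below control, so the separation of their sum was fixed in advance. The libraries at the extremes differed between members. Among the mutants, Asns, Gpt, Gpt2 and Got2 were lowest in replicate 3, and Aldh18a1, Pycr1, Got1 and Glul in replicate 2.

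Genes with a profile like that of Asns were found by the root mean square difference, over the 8 libraries, of log2(TPM + 1) minus the control mean of each gene. A gene is near by this measure largely when its mutant values are lower by about as much as those of Asns. The ranks thus restate the fold changes in large part, and the falls of the genes found are no separate support. The 5 nearest of 15544 other genes were Sytl2 (0.099), Aldh1l2 (0.11), Phgdh (0.12), Msantd3 (0.13) and Ssh3 (0.13). Aldh1l2, a mitochondrial folate enzyme, and Phgdh, the entry enzyme of serine synthesis, fell by 0.45 and by 0.46 on the log2 scale, with adjusted p values of 0.0430 and 0.00883 in limma. With a library left out, Aldh1l2 passed in 0 of 8 fits (adjusted p up to 0.367 over all alternatives) and Phgdh in 5 of 8 (up to 0.252). Sytl2 was at 2.83 to 3.07 TPM in control and 1.83 to 2.32 TPM in mutant libraries, Msantd3 at 35.4 to 38.9 and 23.6 to 35.2 TPM, and Ssh3 at 3.54 to 3.90 and 2.23 to 3.14 TPM, none of them past the adjusted threshold. Among the members, Aldh18a1 ranked 33 and Pycr1 ranked 77 by this measure, Gpt2 1290, Glul 1634, Got2 5949, Got1 8455 and Gpt 11729.

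**Figure D5:**
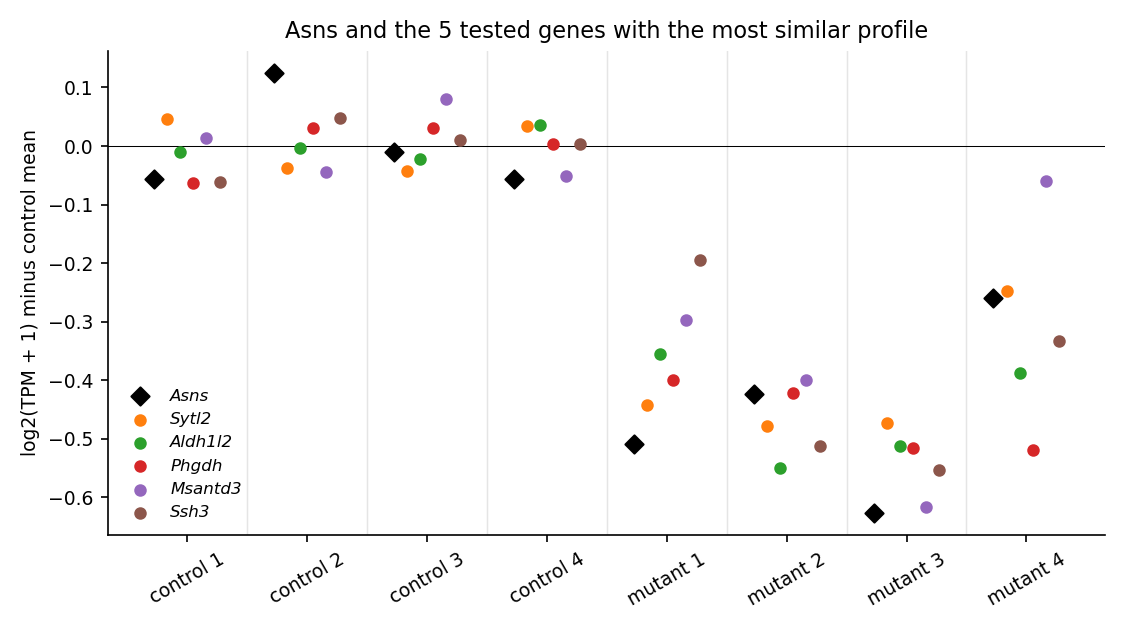
Log2(TPM + 1) minus the control mean (vertical axis) in each of the 8 libraries for Asns (black diamonds) and the 5 tested genes most like it. Control values lie around 0, and all mutant values lie below 0, with Msantd3 in mutant replicate 4 the nearest to it. The genes were picked by this likeness, so low mutant values follow from the choice.

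Over the tested genes with a RefSeq promoter window, the TGATGNAA core was set against the difference between genotypes. It was held by 253 of 10705 genes, with a median log2 fold change of -0.0064, against 0.0002 in the 10452 genes without it. Of the 253, 15 (5.93%) had every mutant below every control and 3 (1.19%) the reverse, while the shares without the core were 1.77% and 1.83%. Asns and Pycr1 are among the 15, so the first share restates in part the separation of these members, which were chosen with earlier results known. With the limma test 0 of the 253 passed an adjusted p of 0.05, against 4 of the 10452 without the core. Over all tested genes only 0.0386% passed, so 0 among 253 says little. At an unadjusted p below 0.05, 16 of the 253 genes with the core were lower, Asns and Pycr1 among them, and 8 were higher. Of the 10452 genes without it, 304 were lower and 295 higher. Over all tested genes the shares were 3.45% lower and 2.65% higher. Asns had the smallest unadjusted p of the 253, and Pycr1 was among the 5 smallest. These shares are descriptions, since promoters with the core can differ from others in ways that were not compared.

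Facts of the whole data set bear on these values as follows. The listed features sum to between 923473 and 949762 TPM per library, and the number of reads is unknown because TPM keeps no depth. Atf4 itself rose from 112 ± 8.07 to 166 ± 15.1 TPM (SD, n = 4 each, adjusted p of 0.0430 in limma), so the level of its transcript gives no check of protein loss; this call passed in 1 of the 8 fits that left out a library. All 10 ventricular cardiomyocyte markers were above 1 TPM in every library, with summed levels of 37326 to 38969 TPM in control and 36191 to 38538 TPM in mutant libraries. The protocol attached to the samples names cortical neurons, but the cortical markers Neurod6, Emx1 and Neurod2 were listed at 0 in all libraries and 8 of 10 neuronal markers stayed below 1 TPM. Summed levels of the atrial (7 of 8 markers at 1 TPM or more in all libraries), endocardial (8 of 8), epicardial (7 of 7), valve mesenchyme (6 of 6), erythroid (9 of 9), macrophage (1 of 6) and hepatocyte (0 of 6) lists overlapped between the groups. The macrophage sums shared only the stretch from 6.20 to 6.42 TPM. At an unadjusted p below 0.05 in limma, 2 of 10 ventricular markers were higher (Nkx2-5 and Hand1) and 0 lower. The atrial list had 1 higher (Myl7) and 0 lower, and the epicardial list 0 higher and 1 lower (Tbx18). The endocardial and valve lists had 0 either way. Over all tested genes the shares were 2.65% higher and 3.45% lower, and the adjusted p of these markers was 0.780 or more. Erythroid sums were 4671 to 7961 TPM in control and 4362 to 6071 TPM in mutant libraries, with 8 of 9 markers at a negative log2 fold change and 2 of them at an unadjusted p below 0.05, and their part in the member values was not tested either.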

How the data were processed

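The authors deposited a table of TPM values, a column per library and a row per feature with symbol, chromosome, strand, start and end. Per the submitters' processing notes, the tools named are FastQC, Trim Galore 0.6.7, HISAT2 2.2.1, StringTie 2.2.1, featureCounts and DESeq2, and the builds GRCm38 and mm10, with no role or order; the strand setting and the handling of shared reads are not given in the sources used here. The labels also disagree on extraction (TRIzol or a column kit) and on library type (poly(A) or ribosomal RNA depletion). All 8 members had the same coordinates in RefSeq GRCm38.p6.

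A feature was tested if 4 or more of the 8 libraries reached 1 TPM (15545 features). The log2(TPM + 1) values were fitted in limma 3.58.1 (R 4.3.3) with a variance trend and no covariate, two-sided, adjusted by Benjamini-Hochberg at 0.05. The fit was tested on simulated data. Python 3.11.15, pandas 2.3.3, numpy 2.4.6 and matplotlib 3.10.9 were used otherwise. The members and lists were chosen with earlier results of these data known. Named besides the members were Atf4, their partner enzymes, the 3 smallest p values of each pathway list, the 5 genes most like Asns and features overlapping a member; Got2-ps1 was named after its values were seen. Some genes are not reported here and were left out of the pathway lists and their counts, but not out of the fit. Alternatives were another pseudocount (0.1), no filter or 5 TPM, 3 other scalings, a fit weighting each library, one without the variance trend, one blocked on replicate number, and leaving out each library.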

Additional observations from a re-analysis of the deposited data

Results flagged for a closer look

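In 72 groups of 4 libraries (36 genes by genotype), a library stood apart from the other 3 by most of the range of its group 3 times, against 3.60 expected at the 1 in 20 rate of chance. For Got2 it was control replicate 1, with 319 TPM where the others held 294 to 295 TPM. For Glud1 it was mutant replicate 2, with 73.1 TPM where the others held 78.3 to 78.5 TPM. For Sytl2 it was mutant replicate 4, with 2.32 TPM where the others held 1.83 to 1.90 TPM. Leaving out that library gave a log2 fold change of 0.021 for Got2, where it turned sign, 0.080 for Glud1 and -0.47 for Sytl2.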

How the results depend on the processing

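No member and no pathway gene passed the adjusted threshold under any of the 17 alternatives, and Asns, Aldh18a1 and Pycr1 kept their direction and an unadjusted p below 0.05 in all of them. Their log2 fold changes ranged from -0.52 to -0.40, -0.36 to -0.29 and -0.48 to -0.36, and their adjusted p from 0.116 to 0.830, 0.0701 to 0.830 and 0.372 to 0.928 (limma). The smallest, for Aldh18a1, came with quantile normalization. Glul ranged from -0.098 to -0.064, with an unadjusted p below 0.05 in 10 of the 17. Over all genes the 6 calls became 0 with no filter, 0 without the variance trend and 0 with the replicate block, and 0 to 3 with a library left out, where the cause was not tested. At an unadjusted p below 0.05 those 3 settings held 1879 of 35731, 957 of 15545 and 864 of 15545 genes. The main fit held 949 of 15545. Same-numbered libraries correlated at -0.082 to 0.035 in their deviations from the group means, which gave no sign that the numbers pair them. A weak correlation cannot exclude a shared litter or processing, which was not tested. Leaving out single libraries turned the sign of Gpt (-0.023 to 0.11), Got2 (-0.048 to 0.021), Mdh2 (-0.0093 to 0.036), Slc25a12 (-0.031 to 0.054) and Mpc1 (-0.061 to 0.64), and quantile normalization turned Mdh2 (-0.0041). Wide ranges of 1 sign with a library left out were those of Gpt2 (-0.17 to -0.074), Got1 (0.0087 to 0.057), Nars2 (0.15 to 0.27), Asl (0.071 to 0.23) and P4ha2 (0.13 to 0.34). The filter at 5 TPM gave no value for Gpt, Gpt2, Bcat1, Ggct, Sytl2 and Ssh3. Depth is unknown, so precision rests on 4 libraries a group.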
